A study of Arabidopsis thaliana with 18 samples.

Results

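Transcript levels of 9 xyloglucan endotransglucosylase/hydrolase (XTH) genes were followed in mature leaves of the tocopherol-deficient vte2 mutant and of Col during low temperature (LT) treatment. The genes were every member that the array's probe table named by the symbol XTH and a number through a probe set given a single gene, which gave XTH16 (At3g23730), XTH18 (At4g30280), XTH19 (At4g30290), XTH20 (At5g48070), XTH21 (At2g18800), XTH26 (At4g28850), XTH29 (At4g18990), XTH32 (At2g36870) and XTH33 (At1g10550). Each was represented by 1 probe set, so that 9 of the 22810 probe sets on the ATH1 array were described. The reference gene table lists 33 XTH genes; of the others, 1 (XTH27) was on hand under the symbol EXGT-A3, and the rest are not analysed here.

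Plants of vte2 and Col were grown to an age of 4 weeks in a 12 h photoperiod at 22°C by day and 18°C by night, and were then moved to 7°C, the LT treatment. The vte2 mutant lacks homogentisate phytyltransferase, the enzyme that commits homogentisate to tocopherol (vitamin E) synthesis, and Col is its wild type. RNA came from leaves 9 to 11 of pooled plants, and the 18 arrays comprise 3 of vte2 and 3 of Col at each time: before the transfer (0 h), at 48 h and at 120 h. Values are log2 expression as summarised by the RMA method, so that a difference of 1 is a 2-fold change. The level of a whole leaf does not separate fewer cells of a type from less RNA per cell.

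Xyloglucan is a branched glucan that coats and tethers cellulose microfibrils in the primary wall of Arabidopsis. XTH proteins are secreted enzymes that cut a xyloglucan chain and either join the new end to another chain (endotransglucosylase activity) or hydrolyse it, and they are best known for remodelling walls during cell expansion and in response to touch, cold, light and hormones. XTH18, XTH19 and XTH20 belong to a clade of close homologues, XTH32 to a branch of the family in which hydrolase activity has been found, and XTH29 and XTH33 to a further branch, in which XTH33 carries a membrane anchor. XTH21 and XTH26 are known mainly from roots, XTH26 from root hairs.

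Array medians lay between 4.98 and 5.18. Both replicate 3 arrays at 0 h stood apart from the other arrays of their genotype: their shifts had a correlation of 0.791 over probe sets, which are not independent replicates, and 1595 probe sets (6.99%) moved over 2-fold the same way in both. Replicate 2 of Col at 48 h also differed from its fellow replicates by over 2-fold at 659 probe sets (2.89%), more than any other LT-treated array. The genotype differences at 48 h and, as labelled, at 120 h correlated at -0.508 over all probe sets. Of the 9 XTH genes, which share their arrays, 6 (XTH16, XTH18, XTH19, XTH26, XTH29 and XTH33) had the same sign at both times. The share of all probe sets with the same sign was not counted. The differences were small for the dim XTH26 (0.04 at 48 h and 0.12 at 120 h) and XTH29 (0.15 and 0.10). Whether the labels at 120 h are exchanged was not tested; groups at 120 h are given as labelled and no direction between them is taken as settled. LT responses averaged over both genotypes do not depend on these labels. Of the leaf markers, 3 of 14 mesophyll genes were named on the array (RCA, LHCB4.2 and PSAE-1), all brighter than at least 98.8% of probe sets. Of the root markers, 2 of 8 were named (PYK10 and EXPA7), and they were brighter than only 15.2% and 28.3% of probe sets. No xylem marker was named. VTE2 itself is not analysed here, so the mutated gene could not be used to check the labels.

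XTH18 had the widest range of the 9 genes (7.38 over the 18 arrays), with a transient maximum at 48 h. At 0 h it read 8.70, 6.44 and 4.36 on the vte2 arrays, and 7.93, 8.28 and 4.25 on the Col arrays. At 48 h it read 11.51, 11.63 and 11.29 in vte2, and 10.84, 8.86 and 11.10 in Col. At 120 h it read 5.66, 4.38 and 5.78 on arrays labelled vte2, and 4.61, 4.86 and 4.38 on arrays labelled Col. All 6 arrays at 48 h lay above every array at 0 h and at 120 h, with vte2 compact and above Col, and the lowest values at 0 h were the 2 replicate 3 arrays. Averaged over both genotypes, XTH18 rose 18.5-fold by 48 h (4.21 ± 0.74, log2 difference ± SE; adjusted p = 0.000223, limma). It then fell by 5.92 on the log2 scale at 120 h relative to 48 h (SE 0.74, adjusted p = 2.13e-05), and both calls held in all 26 alternative analyses. Within vte2 the rise was 4.97 ± 1.04 (adjusted p = 0.00147), and within Col it was 3.44 ± 1.04 (adjusted p = 0.0192). The call in Col was lost without Col replicate 3 at 0 h (2.16, adjusted p = 0.0861), Col replicate 1 at 48 h (3.15, adjusted p = 0.0692) or Col replicate 3 at 48 h (3.03, adjusted p = 0.0751), and with only the arrays compared in the fit (adjusted p = 0.0896), within a range of 0.000687 to 0.0896 over the alternatives.

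Relative to 0 h, XTH18 at 120 h averaged -1.72 ± 0.74 and did not pass the test (adjusted p = 0.0819). It passed in 5 of the 26 alternatives. Without Col replicate 3 at 0 h the difference was -2.36 (adjusted p = 0.00603), without vte2 replicate 3 it was -2.25 (adjusted p = 0.0149), and without both it was -2.90 (adjusted p = 8.29e-05), within a range of 8.29e-05 to 0.205 over the alternatives. With both arrays kept it passed with the replicate number as a block (adjusted p = 0.00512) and with array weights (-2.53, adjusted p = 0.000852). In Col alone the same difference was -2.20 ± 1.04 (adjusted p = 0.134; with the replicate block 0.011; without Col replicate 3 at 0 h -3.49, adjusted p = 0.00848; range over the alternatives 0.000324 to 0.373).

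**Figure D1:**
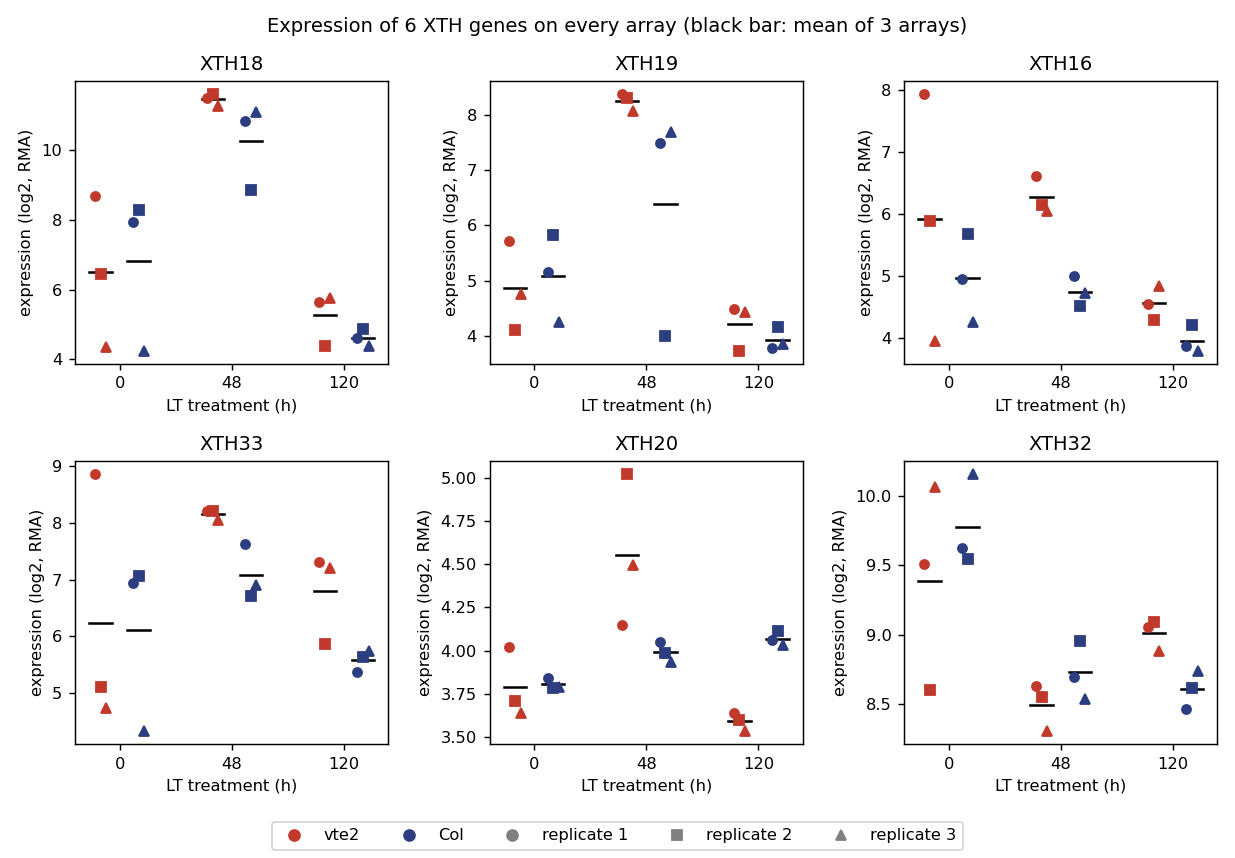
Expression (log2, RMA) of 6 XTH genes at 0, 48 and 120 h of LT treatment; each point is 1 array, red for vte2 on the left and blue for Col on the right, marker shape gives the replicate number and the black bar is the mean of 3 arrays. XTH18 peaks at 48 h on all 6 arrays, XTH19 on 5 of 6, and the mean of XTH32 is highest at 0 h in both genotypes.

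XTH19, which lies next to XTH18 in the genome, followed the same course. It read 5.71, 4.11 and 4.75 in vte2 and 5.16, 5.83 and 4.25 in Col at 0 h. After 48 h the values were 8.38, 8.31 and 8.07 in vte2, and 7.49, 3.99 and 7.70 in Col. After 120 h the values were 4.49, 3.73 and 4.44 on arrays labelled vte2, and 3.78, 4.17 and 3.85 on arrays labelled Col. Thus 5 of the 6 arrays at 48 h lay above all others. Col replicate 2 at 48 h sat within the range of the 120 h arrays and below every 0 h array, 3.60 below the mean of the other Col replicates at 48 h. Averaged over both genotypes, XTH19 rose 5.12-fold by 48 h (2.36 ± 0.52, adjusted p = 0.00155) and fell by 3.25 at 120 h relative to 48 h (SE 0.52, adjusted p = 0.00019), and both calls held in all 26 alternatives. At 120 h it stood at -0.89 ± 0.52 relative to 0 h (adjusted p = 0.198), which passed the test without Col replicate 2 at 48 h (adjusted p = 0.0206, range over the alternatives 0.0206 to 0.365).

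Within vte2, XTH19 rose by 3.4 ± 0.73 at 48 h (10.6-fold, adjusted p = 0.00182). Within Col the difference was 1.31 ± 0.73 (adjusted p = 0.197). This rested on 1 array: without Col replicate 2 at 48 h it was 2.51 ± 0.44 and passed (adjusted p = 0.000521, range over the alternatives 0.000521 to 0.573). The vte2 response minus the Col response was 2.09 ± 1.04 (adjusted p = 0.694), and 0.89 ± 0.59 without that array (adjusted p = 0.989). Whether probes of the 2 neighbouring homologues detect each other's transcripts was not tested.

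**Figure D2:**
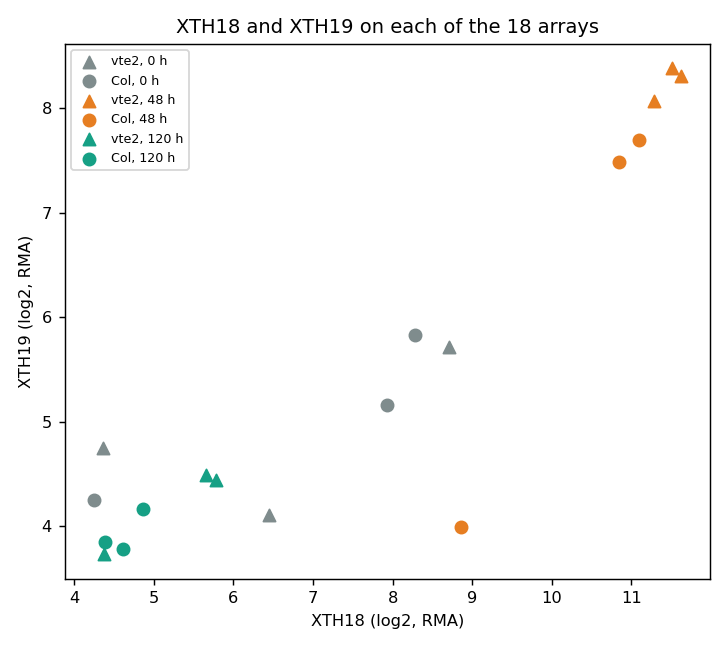
XTH19 against XTH18 (both log2, RMA) on each of the 18 arrays; triangles are vte2, circles are Col, and colour gives the time of LT treatment. The correlation was 0.911 over 18 arrays that share normalization and groups, and 1 Col array at 48 h (XTH18 at 8.86, XTH19 at 3.99) lies apart from the other 48 h arrays.

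XTH20, of the same clade, was measured near the lower end of the array (brighter than 33.7% of probe sets) and moved little in size. At 0 h it read 4.02, 3.71 and 3.64 in vte2, and 3.84, 3.79 and 3.79 in Col. At 48 h of LT treatment it read 4.15, 5.02 and 4.50 in vte2, and 4.05, 3.99 and 3.94 in Col. At 120 h of LT treatment it read 3.64, 3.60 and 3.53 on arrays labelled vte2, and 4.06, 4.11 and 4.03 on arrays labelled Col. The vte2 arrays were thus the higher ones at 48 h and those labelled vte2 the lower ones at 120 h, without overlap at either time. Averaged over both genotypes, XTH20 rose by 0.47 ± 0.11 at 48 h (1.39-fold, adjusted p = 0.00301) and fell by 0.44 at 120 h relative to 48 h (SE 0.11, adjusted p = 0.00756). The rise within vte2 was 0.76 ± 0.16 (adjusted p = 0.00152), which was lost with only the arrays compared in the fit (adjusted p = 0.0683, range 0.000107 to 0.0683), and in Col the difference was 0.18 ± 0.16 (adjusted p = 0.425).

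XTH16 and XTH33 varied over more than 4.15 log2 units, mostly among the 0 h arrays. XTH16 read 7.94, 5.88 and 3.94 in vte2 and 4.95, 5.68 and 4.25 in Col at 0 h. The 48 h arrays read 6.62, 6.15 and 6.04 in vte2, and 5.0, 4.51 and 4.72 in Col. The 120 h arrays read 4.54, 4.29 and 4.83 on arrays labelled vte2, and 3.86, 4.2 and 3.79 on arrays labelled Col. The highest and the lowest 0 h values of XTH16 were both vte2 arrays, and the 120 h arrays lay at the low end of its range. Averaged over both genotypes the LT response of XTH16 at 48 h was 0.07 ± 0.47 (adjusted p = 0.922), and it turned to -0.61 without both replicate 3 arrays at 0 h (adjusted p = 0.106, range 0.106 to 0.999). At 120 h XTH16 stood at -1.19 ± 0.47 relative to 0 h (adjusted p = 0.0592) and at -1.25 ± 0.47 relative to 48 h (adjusted p = 0.0572), both just outside the threshold. Both passed with the replicate block (adjusted p = 0.016 and 0.0145). The difference from 0 h also passed without Col replicate 3 at 0 h (-1.37, adjusted p = 0.0366), without vte2 replicate 3 at 0 h (-1.68, adjusted p = 0.000606) and without both (-1.86, adjusted p = 9.91e-05), within a range of 9.91e-05 to 0.13. The difference from 48 h, which no 0 h array enters except through the shared spread, kept its value of -1.25 and passed without vte2 replicate 1, vte2 replicate 3 or Col replicate 3 at 0 h (adjusted p = 0.00418, 0.00446 and 0.0496, range 4.92e-06 to 0.119).

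XTH33, the membrane-anchored member, read 8.86, 5.11 and 4.73 in vte2 and 6.93, 7.07 and 4.33 in Col at 0 h. After 48 h it read 8.21, 8.21 and 8.05 in vte2, and 7.63, 6.70 and 6.91 in Col. After 120 h it read 7.31, 5.87 and 7.21 on arrays labelled vte2, and 5.37, 5.64 and 5.74 on arrays labelled Col. The 48 h arrays of vte2 were close together and high, but 1 vte2 array at 0 h was higher still. The mean response at 48 h was 1.45 ± 0.62 (adjusted p = 0.0721), and at 120 h XTH33 stood at -1.43 ± 0.62 relative to 48 h (adjusted p = 0.106). Both passed with the replicate block (adjusted p = 0.012 and 0.0175) and without vte2 replicate 1 at 0 h (2.11, adjusted p = 0.00105, range 0.00105 to 0.331; and -1.43, adjusted p = 0.0142, range 0.000168 to 0.23). Without both replicate 3 arrays at 0 h the 48 h response was only 0.63 (adjusted p = 0.331). In vte2 alone the 48 h response was 1.93 ± 0.88 (adjusted p = 0.11), and it passed with the replicate block (adjusted p = 0.0202) and without vte2 replicate 1 at 0 h (3.24, adjusted p = 0.00128, range 0.00128 to 0.348).

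XTH32, a member of the branch with hydrolase activity, was the gene of the 9 that fell under LT treatment at both times. At 0 h it read 9.51, 8.60 and 10.06 in vte2, and 9.63, 9.55 and 10.16 in Col. The 48 h values were 8.63, 8.55 and 8.31 in vte2, and 8.70, 8.95 and 8.54 in Col. The 120 h values were 9.06, 9.09 and 8.89 on arrays labelled vte2, and 8.47, 8.62 and 8.74 on arrays labelled Col. In Col the 0 h arrays lay above all LT arrays, whereas in vte2 replicate 2 at 0 h lay among them. Averaged over both genotypes XTH32 fell by 0.97 at 48 h (SE 0.19, 1.96-fold lower, adjusted p = 0.000603) and by 0.77 at 120 h (SE 0.19, 1.71-fold lower, adjusted p = 0.0045), calls that held in all 26 alternatives. It fell by 1.05 in Col at 48 h (SE 0.27, adjusted p = 0.00709) and by 1.17 on arrays labelled Col at 120 h (SE 0.27, adjusted p = 0.00385).

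In vte2, XTH32 fell by 0.89 at 48 h (SE 0.27, adjusted p = 0.0172). This call was lost without vte2 replicate 1 at 0 h (-0.84, adjusted p = 0.053), vte2 replicate 3 at 0 h (-0.56, adjusted p = 0.0776) or vte2 replicate 3 at 48 h (-0.80, adjusted p = 0.0655), and with only the arrays compared (adjusted p = 0.134), within a range of 0.000156 to 0.134. On arrays labelled vte2 at 120 h the difference was -0.38 ± 0.27 (adjusted p = 0.364). It passed without vte2 replicate 2 at 0 h (-0.77, adjusted p = 0.0119, range 0.0119 to 0.919). The 120 h response labelled vte2 minus that labelled Col was 0.79 ± 0.38 (adjusted p = 0.369).

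The remaining genes, XTH21, XTH26 and XTH29, stayed between 2.99 and 3.88 on every array and passed no test in the main analysis. They were brighter than 8.44%, 17.6% and 21.2% of probe sets, and their whole ranges were 0.47, 0.28 and 0.53 log2 units. Readings this low leave little room to see a fall. EXGT-A3 (XTH27), chosen for its family membership and not by symbol, lay between 9.66 and 11.55 and passed no test either, although replicate 3 at 0 h was again its lowest array in each genotype (9.83 in vte2 and 9.66 in Col).

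**Figure D3:**
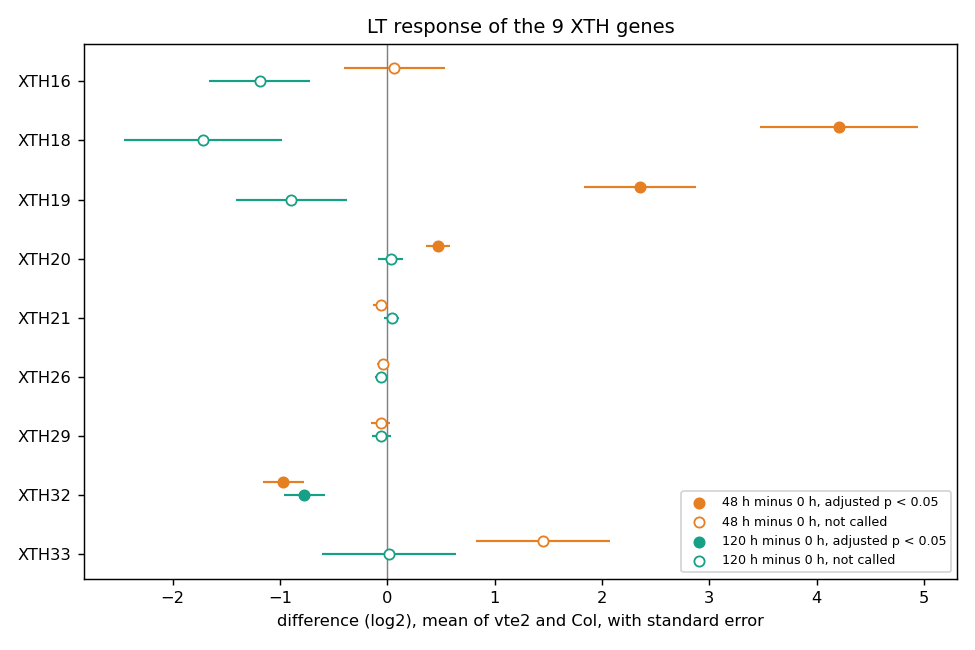
LT response of the 9 XTH genes, as the log2 difference of 48 h (orange) and 120 h (green) from 0 h averaged over vte2 and Col, with standard errors; filled points passed the test at an adjusted p under 0.05 (limma). XTH18 (4.21), XTH19 (2.36) and XTH20 (0.47) rose at 48 h, and XTH32 fell at 48 h (-0.97) and 120 h (-0.77).

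Counted together, 4 of the 9 genes changed at 48 h averaged over both genotypes, 3 higher and 1 lower, where 45.4% of all probe sets were called, 20.8% higher and 24.6% lower. The median response of the 9 genes was 0.07 and that of all probe sets was -0.08. At 120 h, 1 of 9 changed (XTH32, lower) against 37.6% of all probe sets (20.1% higher, 17.5% lower), with a median of -0.06 for the genes and -0.04 for all probe sets. This count became 3 with the replicate block, without both replicate 3 arrays at 0 h, or without either the Col or the vte2 one, with XTH16 and XTH18 added each time, and it became 2 without Col replicate 2 at 48 h. From 48 to 120 h, 3 of 9 genes fell and none rose, where 29.7% of all probe sets were called, 17% higher and 12.7% lower, and the medians were -0.44 for the genes and 0.04 for all probe sets. The 3 were XTH18, XTH19 and XTH20, and XTH16 and XTH33 joined them with the replicate block, with both replicate 3 arrays at 0 h omitted and when vte2 replicate 1 at 0 h was left out.

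Within vte2, 4 of 9 genes changed at 48 h (34.4% of all probe sets), and within Col 2 of 9 (32.3%), a count that was 1 without Col replicate 3 at 0 h or without Col replicate 1 or 3 at 48 h. At 120 h, 0 of 9 changed on arrays labelled vte2 (23.5% of all probe sets; 0 at an unadjusted p under 0.05, against 33.7%) and 1 of 9 on arrays labelled Col (29%). The count for vte2 became 1 without vte2 replicate 2 or 3 at 0 h, and the Col count became 2 without Col replicate 3 at 0 h or Col replicate 2 at 48 h. The vte2 count at 48 h lay a little above the share of all probe sets, and the remaining within-genotype counts lay below it. With 9 genes such counts are coarse, and comparisons at 48 h and 120 h share their 0 h arrays.

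In the comparison of vte2 with Col, 0 of 9 genes passed the test at 0 h (0.00877% of all probe sets; 0 members at an unadjusted p under 0.05, against 8.54% of all probe sets; 1 called, XTH16, without vte2 replicate 3 at 0 h, at 1.95 and adjusted p = 0.0457 against 0.96 and 0.747 with it), 0 of 9 at 48 h (0.338%; 3 members unadjusted, XTH16, XTH19 and XTH20, against 5.68% of all probe sets) and 0 of 9 at 120 h as labelled (6.53%; 1 member unadjusted, XTH20, against 17.2%). The 48 h differences were nevertheless mostly of one sign. Every vte2 array lay above every Col array at 48 h for XTH16, XTH18, XTH19, XTH20, XTH29 and XTH33, that is for 6 of 9 genes against 7.82% of all probe sets. The opposite order held for 0 of 9 genes and for 8.32% of all probe sets, a share at which 0 of 9 says little. The 6 genes with vte2 above Col share their arrays and are not independent of each other. The largest differences at 48 h were 1.87 ± 0.73 for XTH19 (adjusted p = 0.652), 1.53 ± 0.66 for XTH16 (adjusted p = 0.773), 1.21 ± 1.04 for XTH18 and 1.08 ± 0.88 for XTH33 (adjusted p = 0.999 for both), and that of XTH20 was 0.56 ± 0.16 (adjusted p = 0.28). Without Col replicate 2 at 48 h the differences were 0.66 for XTH19, 0.51 for XTH18 and 1.41 for XTH16. With the spread estimated from the 48 h arrays alone, which leaves out the variable 0 h arrays, XTH16 passed (adjusted p = 0.0231, range over the alternatives 0.019 to 1.00). With array weights XTH16 (1.36, adjusted p = 0.019) and XTH20 (0.66, adjusted p = 0.0141, range 0.0141 to 0.813) passed.

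The summed signal of the 3 mesophyll markers moved over the same groups: its log2 was 14.7 to 14.77 in vte2 and 14.71 to 14.81 in Col at 0 h, 13.32 to 13.51 in vte2 and 13.65 to 13.79 in Col at 48 h, and 14.29 to 14.33 and 14.04 to 14.06 on arrays labelled vte2 and Col at 120 h. The 3 markers moved unequally. From 0 to 48 h in vte2 the mean of LHCB4.2 went from 12.85 to 9.18, PSAE-1 from 13.14 to 11.97 and RCA from 13.41 to 12.68. In Col they went from 12.87 to 9.999, 13.05 to 12.08 and 13.52 to 12.98, in the same order. The sum therefore does not measure the share of mesophyll cells, and its part in the XTH differences was not tested. The single named phloem marker, SWEET11, was also lower in vte2 (10.39 to 10.54) than in Col (10.57 to 11.09) at 48 h, and on arrays labelled vte2 at 120 h it was higher (11.01 to 11.37) than on those labelled Col (10.09 to 10.17). FDH, the 1 named epidermis marker, overlapped at 48 h and was lower on arrays labelled vte2 (10.27 to 10.39) than on those labelled Col (10.86 to 10.94) at 120 h, and FAMA, the 1 named guard cell marker, overlapped at all 3 times. The sum of the 2 root markers stayed between 4.39 and 4.82 in all groups.

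**Figure D4:**
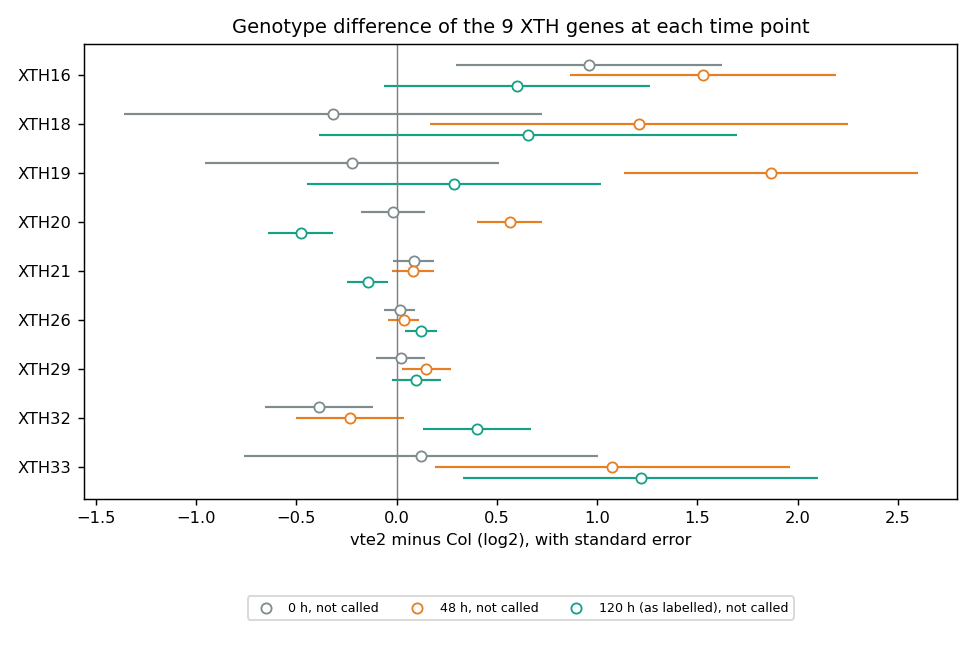
Genotype difference (vte2 minus Col, log2) of the 9 XTH genes at 0 h (grey), 48 h (orange) and 120 h as labelled (green), with standard errors; open points did not pass the test, as holds for all of them. At 48 h 8 of 9 differences are above 0, where the median over all probe sets is 0.000668. These include the dim XTH21 (0.08), XTH26 (0.04) and XTH29 (0.15), and the genes share their arrays. XTH20 lies at 0.56 at 48 h and -0.48 at 120 h.

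At 120 h the arrays labelled vte2 lay above all arrays labelled Col for 5 of 9 genes (XTH16, XTH26, XTH29, XTH32 and XTH33; 18.4% of all probe sets had this order) and below them for 1 of 9, XTH20 (18.2% of all probe sets). For the dim XTH29 the lowest array labelled vte2 read 3.5115 and the highest labelled Col 3.511. For the dim XTH26 these were 3.4082 and 3.3613. None of the 9 genes passed the test, the largest differences being 1.22 ± 0.88 for XTH33 (adjusted p = 0.589) and 0.60 ± 0.66 for XTH16 (adjusted p = 0.787), with 0.40 ± 0.27 for XTH32 (adjusted p = 0.537). With the spread estimated from the 120 h arrays alone, 4 of 9 passed at the same values: XTH16 (adjusted p = 0.0134, range over the alternatives 0.0134 to 0.951), XTH20 (0.00195, range 0.00195 to 0.291), XTH32 (0.0153, range 0.0153 to 0.741) and XTH33 (0.0144, range 0.0144 to 0.851). For XTH20 the difference was -0.48 ± 0.16 (adjusted p = 0.104), and it passed without vte2 replicate 1 or vte2 replicate 2 at 48 h (adjusted p = 0.0382 and 0.02, range 0.00195 to 0.291) at the same value. The difference at 120 h minus that at 48 h, a comparison added after seeing the data, passed for XTH20 (-1.04 ± 0.23, adjusted p = 0.0124) and for none of the other 8 genes, where 5.91% of all probe sets were called. This comparison rests on the 120 h labels, whose exchange was not tested. XTH20 was not among the probe sets kept when the dimmest 40% were left out. In the test of the genotype's effect on the LT response, 0 of 9 genes passed at 48 h (0.0526% of all probe sets; 1 member at an unadjusted p under 0.05, XTH20, against 7.38%) and 0 of 9 at 120 h (2.27%; 0 members unadjusted against 14.3%).

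The 9 genes differed in how evenly the replicates of a group read. The median SD over the genes was 0.74 in vte2 and 0.33 in Col at 0 h, where that over all probe sets was 0.24 and 0.21. In the 4 LT groups it lay between 0.14 and 0.21 over the genes and between 0.11 and 0.13 over all probe sets. Replicate 3 at 0 h minus the mean of the other replicates of its genotype was -3.21 in vte2 and -3.86 in Col for XTH18, -2.26 in vte2 and -2.67 in Col for XTH33, and -2.97 in vte2 and -1.06 in Col for XTH16, but 1.01 in vte2 and 0.57 in Col for XTH32. For XTH20 it was -0.22 in vte2 and -0.02 in Col. On vte2 replicate 1 at 0 h, XTH33 was 3.94, XTH18 3.30 and XTH16 3.03 above the other vte2 replicates. On replicate 2 labelled vte2 at 120 h, XTH33 was 1.39 and XTH18 1.34 below its fellow replicates. The departures of single arrays from their group means were therefore shared by several of the genes: over 18 arrays they correlated at 0.889 between XTH18 and XTH33, 0.854 between XTH16 and XTH33, 0.829 between XTH16 and XTH18, 0.792 between XTH33 and the dim XTH29 and 0.679 between XTH18 and XTH19, and at -0.534 between XTH18 and XTH32. For XTH16, XTH18 and XTH33 the spread was widest at 0 h, and the correlations were not taken without the 0 h arrays.

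**Figure D5:**
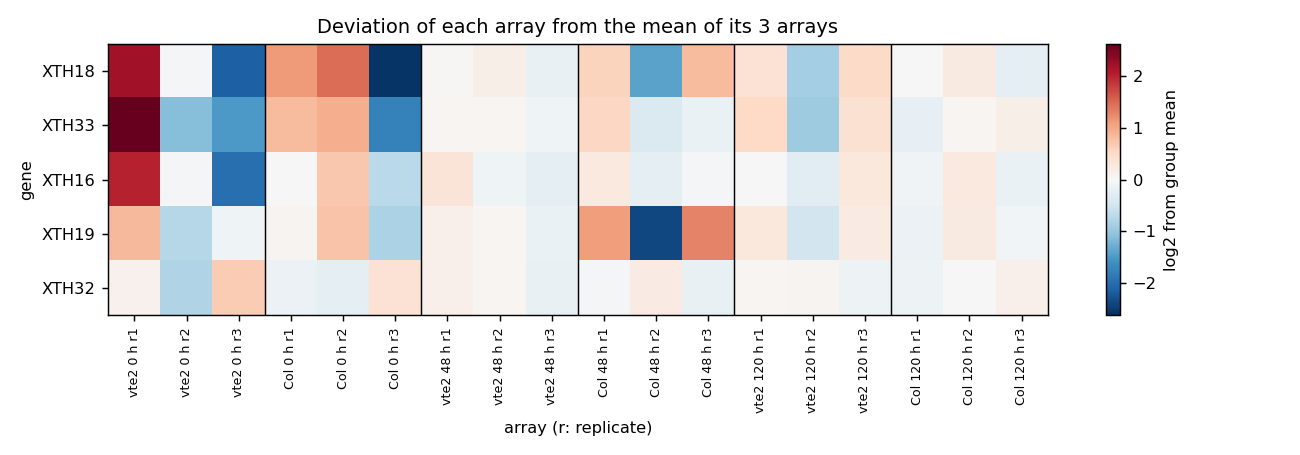
Departure (log2) of each of the 18 arrays from the mean of its 3 arrays for 5 XTH genes; red is above the mean, blue below, columns are arrays with vte2 left of Col at each time, and r gives the replicate. XTH18, XTH33 and XTH16 share their departures at 0 h, while XTH19 departs most on Col replicate 2 at 48 h, which read 3.60 below the other Col replicates.

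Among the 13513 probe sets given a single gene, those most like XTH19 and XTH18 were ranked by Pearson's correlation over the 18 arrays, which share groups and normalization. For XTH19 these were HEMA2 (0.965), PRA1.B4 (0.958), AT5G05300 (0.953), AT3G26910 (0.952) and AT1G15430 (0.952). For XTH18 they were AT5G18150 (0.978), AT5G05190 (0.972), AT4G24160 (0.967), AT5G62865 (0.964) and AT4G09420 (0.964). The 2 lists have no gene in common.

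Other wall-loosening and xyloglucan genes were measured only in part. Of 17 listed expansins, proteins that loosen walls without cutting chains, 10 were measured: averaged over both genotypes, 1 was higher and 5 were lower at 48 h (median -1.20; 20.8% and 24.6% of all probe sets), 1 was higher and 6 were lower at 120 h (median -0.63; 20.1% and 17.5%), and 2 were higher and 1 was lower at 120 h relative to 48 h (17% and 12.7%). EXPA8 fell by 3.51 (SE 0.27, adjusted p = 4.31e-08) and EXPA9 rose by 2.16 (SE 0.17, adjusted p = 4.67e-08) at 48 h. EXLA1, an expansin-like gene, fell by 3.10 at 120 h (SE 0.81, adjusted p = 0.00689). Its 0 h arrays ranged from 7.13 to 11.95 in vte2 and from 6.26 to 10.9 in Col. On arrays labelled Col the 120 h response was -2.51 and did not pass (adjusted p = 0.121, limma), and on those labelled vte2 it was -3.69 (adjusted p = 0.0292). How far the EXLA1 call rests on single 0 h arrays was not tested. Of 11 listed genes of xyloglucan synthesis, 5 were measured, all of the CSLC family that makes the glucan backbone. At 48 h 0 were higher and 2 were lower (median -0.56; 20.8% and 24.6% of all probe sets). At 120 h 0 were higher and 4 were lower (median -0.54; 20.1% and 17.5%). Relative to 48 h, 1 was higher at 120 h (CSLC8, 0.31, adjusted p = 0.0364) and 1 was lower (CSLC4, -0.75, adjusted p = 0.047), against 17% and 12.7% of all probe sets. CSLC5 fell by 1.22 at 48 h (SE 0.22, adjusted p = 0.000245) and by 1.14 at 120 h (SE 0.22, adjusted p = 0.0006), and CSLC4 fell by 1.31 at 120 h (SE 0.27, adjusted p = 0.0011). Between genotypes, EXPA9 differed by -1.23 at 48 h (vte2 minus Col, adjusted p = 0.0419) and EXPA8 by 1.68 at 120 h as labelled (adjusted p = 0.0152), and no CSLC gene passed at any time. None of the 3 listed xyloglucan-trimming hydrolases and none of the 5 listed cellulose synthases was measured under a single gene name.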

How the data were processed

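The authors deposited log2 expression values for 22810 probe sets (64 of them controls) on 18 ATH1 arrays, 3 for each genotype and time point; per the labels and the study's methods, the RMA routine of affy had summarised the perfect match signals after background adjustment and had quantile-normalized the arrays together. They were used as deposited. The quantile step of RMA gives the probe signals of all arrays 1 distribution before they are summarised, so changes are relative to the other transcripts. The probe table gave 13513 probe sets a single gene, 503 several and left 8794 unlisted; locus names came from the RefSeq gene table. The members and all gene lists were chosen with earlier results of these data known.

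Each of the 6 groups was given a mean in a linear model of all probe sets, fitted with limma 3.58.1 in R 4.3.3 (lmFit and eBayes, 12 residual degrees of freedom), with two-sided p-values adjusted by the Benjamini-Hochberg method over all probe sets within each comparison at a threshold of 0.05. The steps were tested on simulated data. Values on every array are given for members that pass a test or vary widely, and the others as ranges. Deviations of same-numbered vte2 and Col arrays correlated over probe sets at 0.397, 0.482 and 0.791 at 0 h, but those of replicates 1 and 2 of different number did so too (0.496 and 0.462), so that only replicate 3 stood out by number; of the same-numbered pairs, the lowest pair reached 0.054 at 48 h and -0.151 at 120 h (highest 0.302 and 0.0096). The main fit pairs no arrays, and an alternative blocks the number within every time point. The study describes the replicates as independent. Alternatives were a fit to only the arrays compared, the replicate number as a block within each time point, cyclic loess, median centring, leaving out the dimmest 40% of probe sets, array weights, a trended robust prior, leaving out each array, and leaving out both replicate 3 arrays at 0 h. The number of arrays limits the precision. No sequences were analysed here.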

Additional observations from a re-analysis of the deposited data

Results flagged for a closer look

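Changes that differed between time points by a test of the difference were those of XTH18 (-5.92, 120 h minus 48 h, log2, mean of both genotypes), XTH19 (-3.25) and XTH20 (-0.442). For XTH20 the genotype difference also changed between times (-1.04, 120 h minus 48 h, as labelled, a comparison added after seeing the data). The same comparison called 5.91% of all probe sets, and XTH20 was brighter than only 33.7% of them. Over all probe sets the genotype differences at the 2 times correlated at -0.508. The XTH20 change rests on the 120 h labels, and whether these are exchanged was not tested. Relative to 0 h, XTH20 at 120 h stood at -0.198 on arrays labelled vte2 (adjusted p = 0.437, limma). The highest of these arrays, at 3.6393, was barely below the lowest vte2 array at 0 h, at 3.6405. On arrays labelled Col it stood at 0.262 (adjusted p = 0.256), with each array above every Col array at 0 h. How many of all probe sets had such an order relative to 0 h was not counted. Neither response passed the test, nor did the difference between them (adjusted p = 0.386).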

How the results depend on the processing

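Of 2015 values of the 6 XTH genes described by array, under the alternatives, 1894 kept their direction and their side of the threshold, 9 lost a call, 62 gained one and 50 changed sign. The cause was not tested for any of them. The count of members called at 120 h averaged over both genotypes (1) was 3 with the replicate block, with array weights and without both replicate 3 arrays at 0 h, and 2 without the dimmest 40% of probe sets (leaving out single arrays: 1 to 3). For 120 h minus 48 h (3) it was 5 with the replicate block, array weights, only the arrays compared, or without both replicate 3 arrays (single arrays: 3 to 5). At 48 h it was 2 in vte2 (main analysis 4, single arrays 3 to 5) and 1 in Col (main 2, single arrays 1 to 3) with only the arrays compared. At 120 h it was 1 with array weights and 2 without both replicate 3 arrays on arrays labelled vte2 (main 0, single arrays 0 to 1), and on arrays labelled Col 2 with the replicate block, 4 with array weights and 3 without both replicate 3 arrays (main 1, single arrays 1 to 2). Between genotypes, the count of 0 at 0 h was 0 to 1 without single arrays (1 was XTH16 without vte2 replicate 3); at 48 h it was 1 with only the arrays compared and 2 with array weights, and at 120 h 4 and 3 (single arrays 0 to 1). For the difference between these at 120 and 48 h (1) it was 3 with only the arrays compared, 2 with array weights and 0 without the dimmest 40%, where XTH20 was left out. The replicate block changed no call of these genes beyond those given beside XTH16, XTH18 and XTH33.

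Sign changes concerned values that did not pass in the main analysis; of the values listed here, XTH16 in vte2 at 48 h (1.36, adjusted p = 0.0369, without vte2 replicate 1 at 0 h, range 0.0369 to 0.895) and its genotype difference at 0 h (1.95, adjusted p = 0.0457, without vte2 replicate 3, range 0.0457 to 1.00) did pass. XTH16 at 48 h (mean) was -0.38 with array weights and -0.61 without both replicate 3 arrays (single arrays -0.43 to 0.57), in vte2 -0.24 and -0.64 (-0.64 to 1.36), in Col -0.57 to 0.14 over single arrays, and its genotype effect on the response -0.0644 without both replicate 3 arrays (-0.42 to 1.58) and at 120 h -1.34 to 0.65. XTH20 at 120 h (mean) was -0.0069 with median centring and -0.0092 without both replicate 3 arrays (-0.0054 to 0.0899), and its genotype difference at 0 h 0.0384 with median centring, 0.0473 with array weights and 0.0501 without both (-0.13 to 0.0578). XTH33 at 120 h (mean) was -0.0706 with cyclic loess, -0.0213 with median centring, -0.58 with array weights and -0.80 without both replicate 3 arrays (-0.43 to 0.67), in arrays labelled vte2 -0.19 without both (-0.19 to 1.88), and its genotype difference at 0 h -0.0168 (-1.19 to 0.87). Over single arrays the genotype difference at 0 h spanned -0.0513 to 1.95 for XTH16, -1.60 to 0.75 for XTH18, -0.65 to 0.15 for XTH19 and -0.72 to 0.0069 for XTH32. The genotype effect on the response spanned -0.10 to 2.26 for XTH18 at 120 h and -0.24 to 0.49 for XTH32 at 48 h, and the 120 h minus 48 h genotype difference -0.97 to 0.15 for XTH18 and -0.13 to 0.60 for XTH33. Another probe set of the same gene could not be tried, since each gene had 1. XTH20, XTH21, XTH26 and XTH29 were among the dimmest 40%, where signal over background limits what can be seen.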
